A study of Mus musculus with 8 samples.

Results

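The expression of 10 genes of matricellular and repair matrix proteins was examined in mouse wound skin, namely the tenascins Tnc and Tnn, the thrombospondins Thbs1, Thbs2, Thbs3 and Thbs4, periostin (Postn), osteopontin (Spp1), Sparc and fibronectin (Fn1). They were chosen by gene symbol, and all 10 were found among the 18540 genes of the deposited count table. All 10 also passed the low-count filter, which kept 15147 genes. Total RNA from the wound skin of 4 control and 4 Z1C2Z samples was sequenced after removal of ribosomal RNA. Z1C2Z is a ZnO2/CeO2@ZIF-8 nanocomposite (ZCZ) whose CeO2 content relative to ZnO2 was the higher of those made. It was described as a source of oxygen and a scavenger of reactive oxygen species. In the wound experiments it was injected around full-thickness dorsal wounds of 10 mm diameter at 100 μg/kg, and control wounds received PBS. The skin for sequencing was taken after 15 days of treatment. Samples are numbered 1, 2, 3 and 5 in the control group and 1, 2, 4 and 5 in the Z1C2Z group after their titles, and values of single samples follow that order. The wounds were made on C57BL mice of 6 weeks and on db/db mice of 10 weeks, a model of type 2 diabetes that lacks functional leptin receptor signalling. Each mouse received 2 wounds. The sources used here do not state which strain was sequenced, or whether samples came from different mice, so the p-values measure the spread between these samples, which may in part be technical.

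Matricellular proteins are secreted into the extracellular matrix, where they modulate how cells attach, move and respond to growth factors more than they serve as scaffold. Most of them are scarce in resting adult skin and appear in the granulation tissue and at the wound edge after injury, from where they recede as the wound closes. Fibronectin belongs to the early provisional matrix on which cells migrate. Integrins, CD44, CD36 and CD47 are the main cell surface receptors of the group.

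In the Z1C2Z group Tnc, Tnn, Thbs1 and Thbs2 fell, by a factor of between 1.86 and 4.67. These were 4 of the 10 genes at an adjusted p under 0.05 by the quasi-likelihood test of edgeR, adjusted by Benjamini-Hochberg over all genes tested, where 3.85% of all genes were called lower. At an additional log2 fold change under -1 they were 3 of 10 (Tnc, Tnn and Thbs1), beside 1.25% of all genes. None of the 10 was called higher by edgeR, beside 4.28% of all genes, or 2.15% with a log2 fold change over 1. The unadjusted p was under 0.05 for 8 of the 10 genes, all lower, beside 15.2% of all genes lower and 12.8% higher. DESeq2 called 8 of the 10 lower and 0 higher, beside 8.22% and 6.76% of all genes. All 10 log2 fold changes were under 0, as were 48.9% of those of all genes, and the median was -0.81 beside 0.0086 over all genes. In 6 of the 10 genes every Z1C2Z sample was lower than every control sample, beside 8.82% of all genes, and in 0 of the 10 it was higher, beside 8.45% of all genes. The calls of the whole table depended on single libraries. Without control-5, or without any Z1C2Z sample but Z1C2Z-5, edgeR called 0 of all genes tested in either direction, and without control-2 it called 98 lower (0.641%) and 25 higher. In these 5 fits it called 0 of the 10 genes. At an unadjusted p under 0.05, 8 of the 10 were lower without control-2 or Z1C2Z-1, and 7 without control-5, Z1C2Z-2 or Z1C2Z-4.

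**Figure D1:**
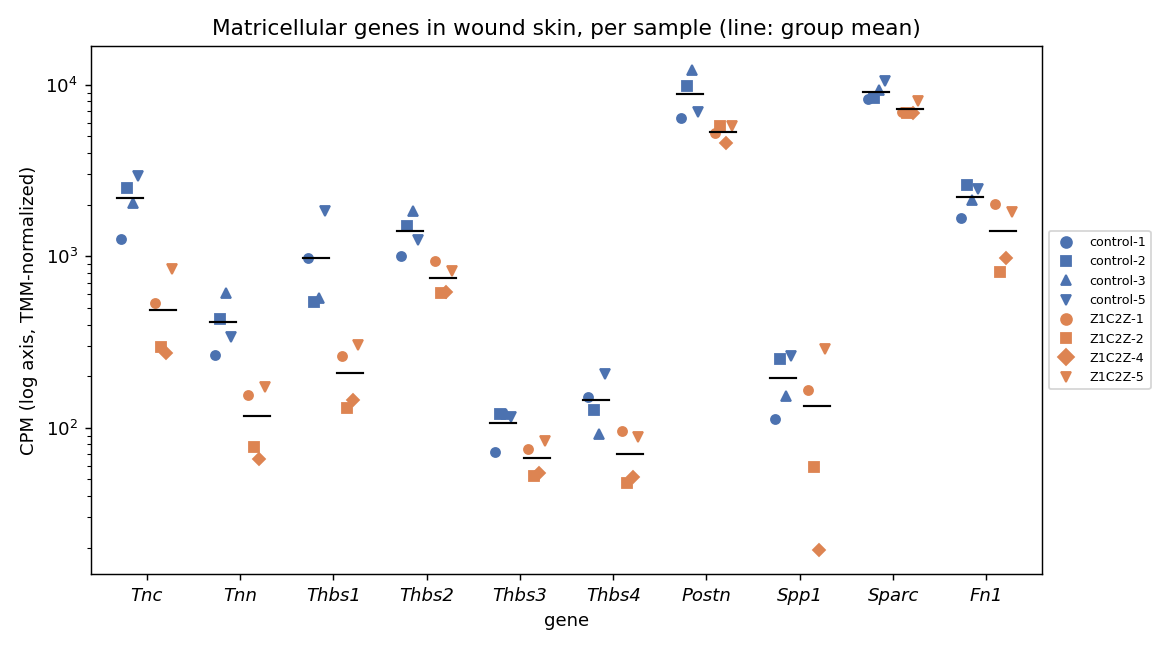
CPM of the 10 genes (log axis) in each control (blue) and Z1C2Z (orange) sample, with the mean of each group as a line. The groups do not overlap for Tnc, Tnn, Thbs1, Thbs2, Postn and Sparc, and the Z1C2Z samples of Spp1 spread from 19.3 to 289 CPM.

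**Figure D2:**
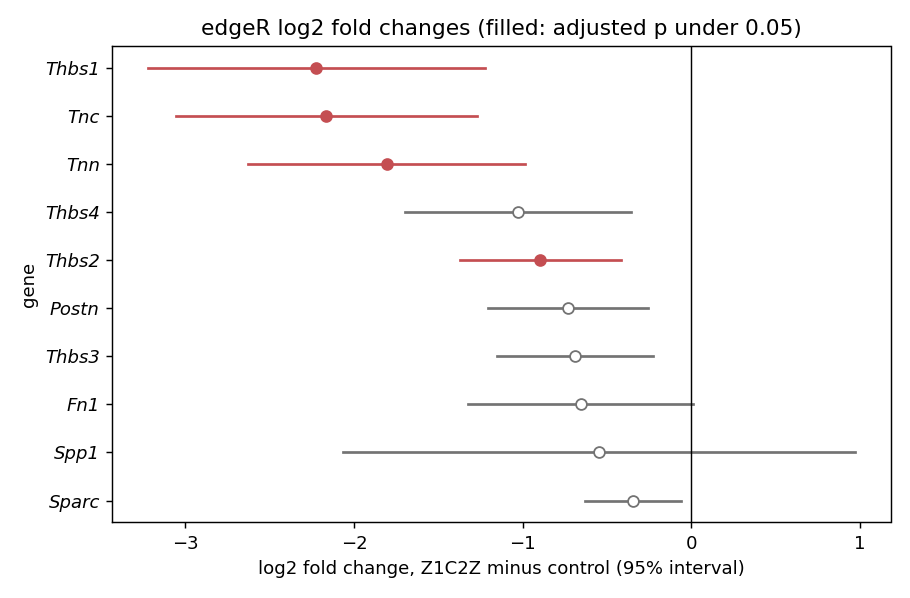
edgeR log2 fold changes of Z1C2Z against control with 95% intervals that are not adjusted for the number of genes. Filled points have an adjusted p under 0.05, and the values run from -2.22 for Thbs1 to -0.35 for Sparc.

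The genes differed widely in level. Compared as CPM (counts scaled to a common library size) per kilobase of exon, Sparc was the most highly expressed in the control group, with 2409 ± 267 (SD, n = 4), followed by Postn with 1015 ± 309 (SD, n = 4). Tnc followed with 281 ± 91.2 (SD, n = 4), Thbs2 with 199 ± 51.4, Fn1 with 190 ± 36.1, Thbs1 with 161 ± 99.6 and Spp1 with 119 ± 44.5 CPM per kilobase. Tnn (70.8 ± 25.8), Thbs4 (43.9 ± 14.7) and Thbs3 (22.2 ± 4.84) came last. The control ranges of neighbours in this order overlapped from Tnc down to Thbs4, whereas Sparc, Postn and Thbs3 were apart from their neighbours. In the Z1C2Z group the level of Tnc was 62.7 ± 34.1 CPM per kilobase, below those of Fn1 (120 ± 51.5) and Thbs2 (107 ± 23.0), although its range overlapped theirs. Together the 10 genes took between 1.97% and 2.85% of all counts in the control samples and between 1.39% and 1.88% in the Z1C2Z samples.

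The 250 bases before the start site are given for the called genes with an entry among the RefSeq promoters (GRCm38.p6). Shared regulation of these genes was not tested. The promoter table held 8 of the 10 genes. Thbs1 and Fn1 had no entry. The sequences are written 5′ to 3′ along the transcribed strand, all on the minus strand, and capitals mark every match, on either strand, to TATAAA (the letters of a TATA box), CCAAT (the CCAAT box), GGGCGG (the GC box of Sp1), TGANTCA (the site of AP-1), GGAATG (the site of TEAD factors) and the CArG box (the site of serum response factor). No match overlapped another in these windows. For Tnc, which has 2 start sites in the table, the upstream one is shown.
Tnc, chr4:64047016-64047265: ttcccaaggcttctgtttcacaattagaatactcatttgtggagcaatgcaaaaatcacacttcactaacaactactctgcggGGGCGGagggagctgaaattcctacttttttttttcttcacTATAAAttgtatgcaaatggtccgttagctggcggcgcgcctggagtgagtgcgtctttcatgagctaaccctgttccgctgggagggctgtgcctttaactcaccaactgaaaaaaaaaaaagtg
Tnn, chr1:160153576-160153825: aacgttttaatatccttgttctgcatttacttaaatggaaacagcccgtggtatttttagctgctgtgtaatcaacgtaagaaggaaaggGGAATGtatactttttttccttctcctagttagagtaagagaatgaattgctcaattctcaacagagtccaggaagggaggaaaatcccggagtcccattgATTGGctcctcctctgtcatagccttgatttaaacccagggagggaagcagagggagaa
Thbs2, chr17:14694263-14694512: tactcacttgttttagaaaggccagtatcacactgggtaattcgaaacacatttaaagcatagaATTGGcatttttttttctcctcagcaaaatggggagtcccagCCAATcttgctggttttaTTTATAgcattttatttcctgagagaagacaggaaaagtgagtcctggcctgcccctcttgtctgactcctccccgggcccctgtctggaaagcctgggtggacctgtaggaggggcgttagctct

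The Tnc window held GGGCGG and TATAAA, the Tnn window GGAATG and CCAAT on the opposite strand, and the Thbs2 window CCAAT on each strand and TATAAA on the opposite strand. For Thbs2 and the Tnc start shown, the TATAAA letters lay 126 to 121 bases before the start, farther upstream than a TATA box usually lies. From the other Tnc start the same letters lay 205 to 200 bases upstream. The window of that other start also held TATATAAG close to its end, which the search for TATAAA did not count. No motif was common to the 3 windows, and none of them held TGANTCA or a CArG box. Among 32841 promoter windows of the same length, 12.4% held TATAAA, 33.9% CCAAT, 32.7% GGGCGG, 6.75% TGANTCA, 12.6% GGAATG and 1.47% a CArG box. The start sites used in wound skin were not measured.

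Tenascin-C, encoded by Tnc (Entrez 21923), is a large glycoprotein that appears beneath the migrating epidermis and in granulation tissue and loosens the adhesion of cells to fibronectin. Tnc had 1268, 2498, 2036 and 2925 CPM in the control samples, and 535, 296, 275 and 843 CPM in the Z1C2Z samples. The highest Z1C2Z sample thus lay below the lowest control sample. The group means ± SD were 2182 ± 709 and 487 ± 265 CPM (n = 4 each), and Tnc fell by 2.16 ± 0.40 (SE) on the log2 scale (edgeR, adjusted p = 0.0300). Only 55 of the 15147 genes had a lower log2 fold change. Leaving out each sample in turn gave log2 fold changes between -2.57 and -1.97, with an edgeR adjusted p from 0.0107 without Z1C2Z-5 to 0.0891 without Z1C2Z-2. It stayed above 0.05 in 5 of these 8 fits, at 0.0585 without control-2, 0.0783 without control-5, 0.0665 without Z1C2Z-1 and 0.0876 without Z1C2Z-4.

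Tnn (Entrez 329278) encodes tenascin-N, also called tenascin-W, which is known from bone, periosteum and the stroma of some tumours. Tnn had 266, 432, 613 and 337 CPM in the control samples, against 155, 77.2, 66.0 and 173 CPM in the Z1C2Z samples. As for Tnc, the groups did not overlap, and Z1C2Z-2 and Z1C2Z-4 were the lowest samples. With means of 412 ± 150 and 118 ± 53.9 CPM (SD, n = 4 each), Tnn fell by 1.81 ± 0.37 (SE) on the log2 scale (edgeR, adjusted p = 0.0303). Without a sample the edgeR adjusted p lay between 0.0176 and 0.0933, and it was 0.0615 without control-2, 0.0789 without control-5, 0.0662 without Z1C2Z-1, 0.0933 without Z1C2Z-2 and 0.0911 without Z1C2Z-4. The log2 ratio of Tnc to Tnn counts was 2.41 ± 0.577 in the control group and 2.02 ± 0.211 in the Z1C2Z group (SD, n = 4 each) and overlapped between them (exact two-sided permutation test, p = 0.314).

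Thrombospondin-1 (Thbs1, Entrez 21825) is released from platelets and made by many cells in early wounds, activates latent TGF-beta and inhibits angiogenesis through CD36 and CD47. Its values were 976, 539, 570 and 1837 CPM in the control samples, and 262, 131, 145 and 302 CPM in the Z1C2Z samples. Control-5 stood above the other control samples, and no Z1C2Z sample reached the lowest of them. Thbs1 fell by 2.22 ± 0.44 (SE) on the log2 scale (edgeR, adjusted p = 0.0303), between means of 981 ± 605 and 210 ± 84.7 CPM (SD, n = 4 each). Without control-5 the log2 fold change was -1.72 (edgeR adjusted p = 0.0768), closer to 0 than those of Tnc (-1.99) and Tnn (-1.89) in the same fit. The edgeR adjusted p was also above 0.05 without control-2 (0.0523), Z1C2Z-1 (0.0672), Z1C2Z-2 (0.0925) and Z1C2Z-4 (0.0932).

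Thbs2 (Entrez 21826), whose product is made by fibroblasts, shapes collagen fibrils and restrains vessel growth, changed less. It had 1003, 1493, 1844 and 1242 CPM in the control samples, and 940, 614, 617 and 826 CPM in the Z1C2Z samples. The groups were separated by the small gap between Z1C2Z-1 and control-1. Thbs2 fell by 0.90 ± 0.21 (SE) on the log2 scale (edgeR, adjusted p = 0.0395), with means of 1395 ± 360 and 749 ± 161 CPM (SD, n = 4 each). Thbs2 kept an adjusted p under 0.05 in 2 of the 8 fits without a sample, those without control-1 (0.0308) and Z1C2Z-5 (0.0409). In the other fits it was between 0.0672 without Z1C2Z-1 and 0.122 without Z1C2Z-2, including 0.0675 without control-3, 0.0832 without control-2, 0.0909 without control-5 and 0.118 without Z1C2Z-4.

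Thbs3 and Thbs4 encode the smaller thrombospondins, which lack the domain by which Thbs1 and Thbs2 inhibit angiogenesis. Thbs4 (Entrez 21828), found in tendon and muscle, had 152, 127, 92.1 and 207 CPM in the control samples and 96.0, 47.5, 51.4 and 88.1 CPM in the Z1C2Z samples, and only Z1C2Z-1 and control-3 overlapped. At -1.03 ± 0.30 (SE) on the log2 scale it did not pass the threshold (edgeR, adjusted p = 0.0635). Thbs3 (Entrez 21827) ranged from 72.3 to 121 CPM in the control samples and from 52.2 to 83.3 CPM in the Z1C2Z samples, a log2 difference of -0.69 ± 0.21 (SE; edgeR, adjusted p = 0.0684). DESeq2 gave both an adjusted p under 0.05, at 0.00476 for Thbs4 and 0.0121 for Thbs3.

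Within the thrombospondin family the ratios of counts, which do not depend on library size, were compared over 6 pairs, and with the pair of tenascins over 7 in all. The log2 ratio of Thbs1 to Thbs4 was 2.64 ± 0.437 in the control group and 1.55 ± 0.154 in the Z1C2Z group (SD, n = 4 each), and that of Thbs1 to Thbs3 was 3.04 ± 0.970 and 1.60 ± 0.268. Neither overlapped between the groups (exact two-sided permutation test, p = 0.0286, the smallest that 4 samples against 4 allow). Adjusted over the 7 pairs this became 0.100, which did not pass the threshold. The ratio of Thbs1 to Thbs2 overlapped, with -0.66 ± 1.10 and -1.90 ± 0.339 (exact permutation test, p = 0.0857, adjusted p = 0.200). In control-1 and control-5 Thbs1 was close to or above Thbs2, whereas in control-2 and control-3 it was lower. The 3 pairs without Thbs1 overlapped and differed by at most 0.35 on the log2 scale, with exact permutation p between 0.200 and 0.771.

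**Figure D3:**
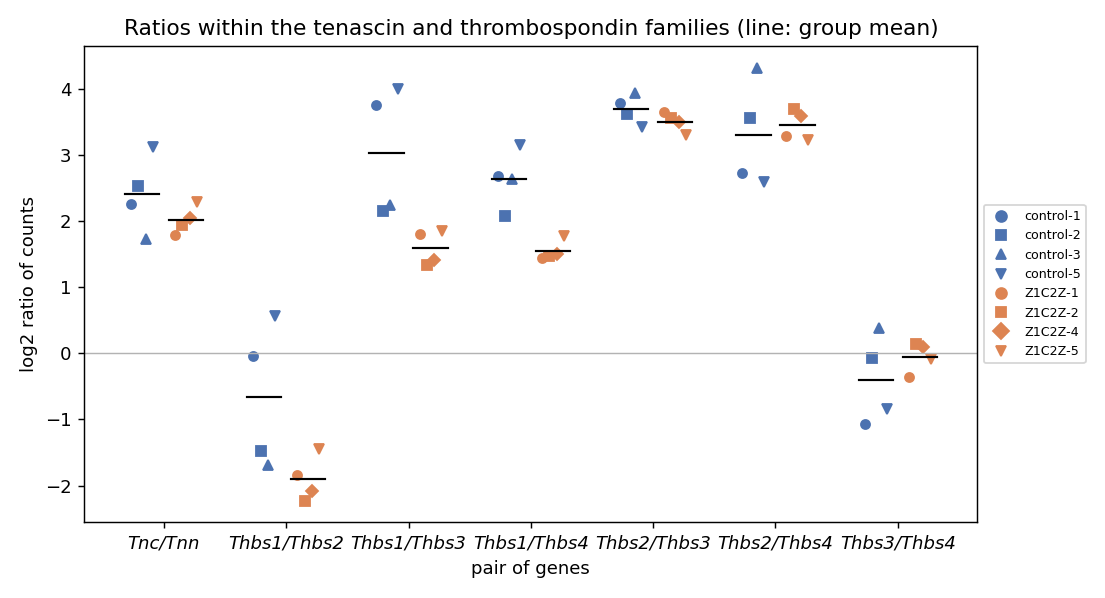
Log2 ratio of counts for 7 pairs of genes in each control (blue) and Z1C2Z (orange) sample, with group means as lines. The groups are apart only for Thbs1 over Thbs3 and Thbs1 over Thbs4.

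Postn and Sparc are bound to collagen and were the most abundant of the 10 genes. Periostin (Postn, Entrez 50706) supports collagen cross-linking and is induced by TGF-beta in wound fibroblasts. It had 6428, 9777, 12202 and 6926 CPM in the control samples and 5231, 5732, 4573 and 5757 CPM in the Z1C2Z samples. The groups did not overlap, and the Z1C2Z samples were closer to each other than the control samples. On the log2 scale the difference was -0.73 ± 0.21 (SE). The adjusted p from edgeR was 0.0637, and 0.0396 without control-1. Sparc (Entrez 20692), a calcium-binding glycoprotein that chaperones procollagen, had 8290 to 10460 CPM in the control samples and 6844 to 8006 CPM in the Z1C2Z samples. This difference of -0.35 ± 0.13 (SE) on the log2 scale was the smallest of the 10 genes, and it did not pass the threshold (edgeR adjusted p = 0.112).

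Osteopontin (Spp1, Entrez 20750), a secreted ligand of integrins and CD44 that macrophages and other cells release in wounds, varied most within a group. It had 113, 251, 154 and 263 CPM in the control samples, but 167, 59.2, 19.3 and 289 CPM in the Z1C2Z samples. Z1C2Z-2 and Z1C2Z-4 lay below the control range, Z1C2Z-1 within it and Z1C2Z-5 above it. The log2 fold change of -0.55 had a 95% interval from -2.07 to 0.97 (edgeR adjusted p = 0.628), so neither a fall nor a rise of this size could be told from the spread. The summed CPM of 10 macrophage markers, of which 0 were called, was 1486 to 1908 in the control samples and 1508, 1101, 1001 and 1565 in the Z1C2Z samples. Z1C2Z-2 and Z1C2Z-4 were thus lowest both for Spp1 and for this sum, as they were among the Z1C2Z samples for 31.7% of all genes. Of the markers, Gpnmb went the other way, with 141, 217, 194 and 107 CPM in the Z1C2Z samples, and Trem2 was highest in Z1C2Z-2. The part of macrophages in the spread of Spp1 was not tested.

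Fibronectin (Fn1, Entrez 14268) is the adhesive protein of the provisional matrix and the main ligand of the integrin of Itga5 and Itgb1. Fn1 had 1661, 2617, 2128 and 2455 CPM in the control samples and 2030, 814, 973 and 1808 CPM in the Z1C2Z samples. Z1C2Z-1 and Z1C2Z-5 lay within the control range, and Z1C2Z-2 and Z1C2Z-4 lay below it. The log2 fold change was -0.66 with a 95% interval from -1.32 to 0.01 (edgeR adjusted p = 0.184). Without Z1C2Z-2 and Z1C2Z-4 it was -0.21 (edgeR adjusted p = 0.690). Leaving out the lowest samples had to shrink the fall, and edgeR called 0 of all genes tested in this fit.

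The receptors were described by a list of 22 genes, all of which passed the filter. Of these, 3 fell (Cd44, Itga5 and Itgb1) and 1 rose (Itgb6), beside 3.85% lower and 4.28% higher among all genes, and the median log2 fold change was -0.39. Cd44, the receptor of hyaluronan and osteopontin, had 720 to 996 CPM in the control samples and 369 to 485 CPM in the Z1C2Z samples, and fell by 1.01 on the log2 scale (edgeR, adjusted p = 0.0280). Itga5, which encodes the alpha chain of the fibronectin receptor, had 141, 168, 148 and 350 CPM in the control samples and 44.4 to 88.1 CPM in the Z1C2Z samples (log2 fold change -1.70, edgeR adjusted p = 0.0303). The log2 fold change of Itgb1, its beta chain, was -0.61 (edgeR adjusted p = 0.0386). Itgb6, a keratinocyte integrin chain that binds fibronectin and tenascin-C, rose by 0.52 on the log2 scale, with 13.0 to 18.3 CPM in the control samples and 19.0 to 23.6 CPM in the Z1C2Z samples (edgeR adjusted p = 0.0483). The thrombospondin receptors Cd36 (-0.12) and Cd47 (-0.52) had edgeR adjusted p of 0.560 and 0.0576. No receptor was called higher by edgeR without the low-count filter, or when any 1 sample but control-1 was left out. In the fits where edgeR called any gene of the table, 1 receptor was called lower without control-2 (beside 0.641% of all genes) and 2 without control-3 (3.04%). It was 6 receptors without control-1 (5.68%) or without Z1C2Z-5 (5.62%).

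Among 26 other matricellular genes 23 passed the filter, of which 4 fell (Ccn1, Ccn2, Ccn4 and Cthrc1) and 1 rose (Matn4), beside 3.85% lower and 4.28% higher among all genes. Ccn1 and Ccn2 encode secreted regulators of adhesion and fibrosis. Ccn1 had 140, 90.8, 81.9 and 242 CPM in the control samples and 39.8 to 46.6 CPM in the Z1C2Z samples, and fell by 1.68 on the log2 scale (edgeR, adjusted p = 0.0303). Ccn2 had -0.89 (edgeR adjusted p = 0.0309), Ccn4 -0.94 (0.0471) and Cthrc1, a secreted glycoprotein of wound fibroblasts, -0.65 (0.0299). Matn4, a matrilin of the extracellular matrix, rose from 1.46 ± 0.167 CPM to 4.49 ± 1.85 CPM (SD, n = 4 each, log2 fold change 1.62, edgeR adjusted p = 0.0303). The median log2 fold change of this list was -0.16, and Smoc2 (-0.05) and Cilp (-0.16) were among the genes near it. Without control-2, where 0.641% of all genes were called lower by edgeR, 1 of this list was.

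TGF-beta is a main inducer of several of the 10 genes, and of 13 of its ligands, receptors, carriers and targets 5 fell and 0 rose in edgeR, beside 3.85% lower and 4.28% higher among all genes. All 13 log2 fold changes were under 0, with a median of -0.66, and none was higher at an unadjusted p under 0.05. Tgfb2 (-0.85, edgeR adjusted p = 0.0299), Ltbp1, which tethers latent TGF-beta to the matrix (-0.61, 0.0364), Acta2 (-0.66, 0.0377) and Skil (-0.50, 0.0498) were among the genes that fell. Tgfb1 (-0.68, 0.0557), Tgfb3 (-0.13, 0.331) and Smad7 (-0.05, 0.902) did not pass the threshold. The number of this list that edgeR called lower was 4 with RLE size factors, without the low-count filter or with at least 10 counts in every sample. It was 0 without control-2 (0.641% of all genes), 3 without control-3 (3.04%) and 8 without Z1C2Z-5 (5.62%). The part of TGF-beta in the falls of the matrix genes was not tested.

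In the authors' annotation, 8 of the 10 genes belonged to the KEGG pathway ECM-receptor interaction, all but Postn and Sparc. Of the other 71 tested genes of this pathway, 4 fell (5.63%) and 1 rose (1.41%), beside 3.85% and 4.28% of all genes, with a median log2 fold change of -0.31. The genes that fell were Cd44, Col6a1, Itga5 and Itgb1, and Itgb6 rose. The GO terms shared by most of the 10 genes were extracellular region (10 of 10), collagen-containing extracellular matrix (9) and cell adhesion (8).

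Some lists of cell type markers changed beside these genes, in either direction, and others did not. In whole tissue fewer cells of a type and less RNA per cell cannot be told apart. Basal keratinocyte and fibroblast markers were abundant in all samples: the summed level of 6 basal keratinocyte markers was 4513 to 7174 CPM in the control samples and 4904 to 6151 CPM in the Z1C2Z samples, and 0 were called in edgeR. Over all genes 3.85% were called lower and 4.28% higher, beside which the counts of each list are given. Of 9 fibroblast markers 3 fell (Dcn, Lum and Thy1). The summed level of the 9 was 55101 to 78374 CPM in the control samples and 43302 to 60775 CPM in the Z1C2Z samples. Of 7 myofibroblast and smooth muscle markers 4 fell, among them Acta2, which is also in the TGF-beta list. Their sums were 840 to 1022 and 534 to 610 CPM. Of 12 hair follicle markers 11 rose, with sums of 563, 1487, 2317 and 473 CPM in the control samples and 5422, 10263, 9284 and 2859 CPM in the Z1C2Z samples. Z1C2Z-2 and Z1C2Z-4, the highest in hair follicle markers, were the lowest Z1C2Z samples for 9 of the 10 matrix genes, beside 31.7% of all genes and 62.6% of the genes that fell. Control-1 was the lowest control sample for 8 of the 10, beside 31.7% of all genes and 38.4% of the genes that fell. Among the control samples the order was mixed. Control-5, the lowest in hair follicle markers, was the highest for 5 of the 10 matrix genes. Control-3, the highest in these markers, was the highest for 3, namely Tnn, Thbs2 and Postn. Without Z1C2Z-2 and Z1C2Z-4 the log2 fold changes of Tnc, Tnn, Thbs1 and Thbs2 were -1.66, -1.33, -1.80 and -0.66, and none passed the threshold (edgeR adjusted p of 0.280, 0.280, 0.299 and 0.349). Both were the lowest Z1C2Z samples for these genes, so leaving them out had to shrink the falls. In this fit edgeR called 0 of all genes tested, with a smallest adjusted p of 0.280. It therefore cannot show whether the calls depend on these samples.

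Of 12 skeletal muscle markers 3 fell, beside 3.85% of all genes, with sums of 3849 to 7354 CPM in the control samples and 3384 to 3675 CPM in the Z1C2Z samples. Tendon markers, beside Thbs4, had sums of 83.9 to 128 and 123 to 148 CPM, and 0 of 5 were called in edgeR. Platelet markers, beside Thbs1, had sums of 60.1 to 114 CPM in the control samples and 30.3 to 64.3 CPM in the Z1C2Z samples. Most of this sum was Pf4, with means of 75.5 and 38.1 CPM, and Gp1bb went the other way (log2 fold change 0.47, edgeR adjusted p = 0.389). Of these 8 markers 4 passed the filter and 0 were called in edgeR, while Gp9, Gp1ba, Gp6 and Treml1 had at most 66 counts over all samples. Neutrophil markers (5 of 8 passed the filter, 0 called in edgeR) had sums of 572 to 1497 and 167 to 655 CPM, and Ly6g, Mpo and Elane had at most 57 counts over all samples. The bone and cartilage markers Ibsp, Bglap, Col2a1 and Col10a1 were also near 0, with at most 39 counts over all samples, and of the other 5 only Sox9 was called, as higher. The sums of 4 wound keratinocyte markers (2822 to 6388 and 2319 to 4209 CPM), 6 endothelial markers (316 to 840 and 276 to 522 CPM), 5 Schwann cell markers (198 to 310 and 213 to 267 CPM) and 5 adipocyte markers (204 to 333 and 161 to 254 CPM) overlapped, and none of these genes was called in edgeR. The part of these cell types in the falls of the matrix genes was not tested.

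**Figure D4:**
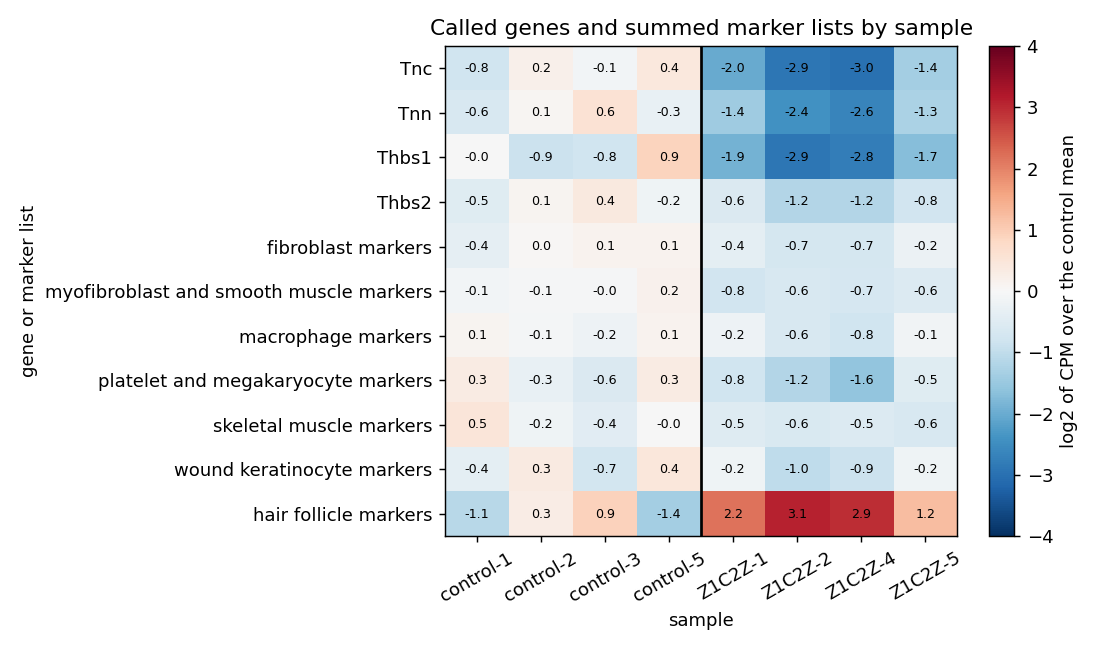
Log2 of CPM over the control mean for the 4 called genes and for the summed CPM of 7 marker lists (rows) in each sample (columns, control left of the line). Among the Z1C2Z samples the hair follicle row is highest in Z1C2Z-2 (3.08) and lowest in Z1C2Z-5 (1.24), while Tnc, Tnn and Thbs1 are highest in Z1C2Z-5 and Thbs2 in Z1C2Z-1.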

How the data were processed

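Wound skin of 4 control and 4 Z1C2Z samples was grouped by sample title. The table deposited by the authors holds raw read counts of each gene, with GO and KEGG annotation. The aligner, counting program, genome build, annotation and strand setting are not given in the sources used here. The methods name a tissue RNA kit and the labels Trizol. Samples held 28856790 to 38974888 counts, and 0 columns of per-sample values were left unused. No 2 libraries agreed within sampling noise (chi-square per degree of freedom of at least 21.3 for every pair).

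The main analysis used edgeR 4.0.16 in R 4.3.3: filterByExpr, TMM normalization, glmQLFit and glmQLFTest over all 15147 genes, without covariates, and Benjamini-Hochberg adjustment. A gene counted as called when its adjusted p was under 0.05. Standard errors came from the F statistic. For single genes, log2 CPM (prior count 2) was also compared over the 70 arrangements of the samples by an exact two-sided permutation test, which gave p = 0.0286 for the 6 genes without overlap. Exon lengths were unions of GENCODE M21 exons by symbol, which include retained introns. The script was tested on simulated data.

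The 10 genes, the lists, the ratios and the motifs were chosen with earlier results of these data known. Named genes are all 10, the called genes of each pathway list (at most 6) and others named for their role, chosen after their values were seen. The values of 1 called gene are not reported here. Alternatives were DESeq2 1.42.0, RLE size factors, no filter, the sample number as a block, a minimum of 10 counts per sample, other thresholds, each sample left out in turn and, chosen after seeing the data, the joint omission of Z1C2Z-2 and Z1C2Z-4 or of control-1 and control-5.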

Additional observations from a re-analysis of the deposited data

Results flagged for a closer look

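Of 20 groups of 4 values (10 genes in each of 2 groups), 2 held a sample far from the others by Dixon's criterion, which chance meets in about 1 of 20 groups. Thbs3 was 72.3 CPM in control-1, while the other control samples lay between 115 and 121 CPM. Sparc was 8006 CPM in Z1C2Z-5, while the other Z1C2Z samples lay between 6844 and 6985 CPM. The edgeR adjusted p of Thbs3 was 0.0340 without control-1 (log2 fold change -0.85), and that of Sparc was 0.0815 without Z1C2Z-5.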

How the results depend on the processing

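The 4 calls were the same genes with RLE size factors, without the low-count filter and with at least 10 counts in every sample. The number of the 10 genes called lower was 8 with DESeq2 (all but Spp1 and Fn1), 8 at an unadjusted p under 0.05, and between 0 and 6 when each sample was left out in turn, where between 0 and 868 of all genes (at most 5.68%) were called lower. It was 0 without Z1C2Z-2 and Z1C2Z-4 (5 genes at an unadjusted p under 0.05) and 0 without control-1 and control-5 (7 genes), and the number called higher was 0 in every fit. In these pair omissions edgeR called 0 genes over the whole table and 4 higher and 9 lower, respectively. The direction of all genes but Spp1 held in all 15 alternative fits. Spp1 turned to 0.22 without Z1C2Z-2 and Z1C2Z-4 (edgeR adjusted p = 0.831), and the cause was not tested.

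With the sample number as a replicate block 3 genes were called, Tnc (-2.03, edgeR adjusted p = 0.0297), Thbs1 (-2.18, 0.00324) and Thbs4 (-1.11, 0.0276), while Tnn (-1.40, 0.0846) and Thbs2 (-0.65, 0.248) were not. Control-3 and Z1C2Z-4 have no sample of the same number in the other group. The block absorbed both, so the group difference in this fit rested on numbers 1, 2 and 5 only. Samples of the same number deviated from their group means with correlations of -0.10, -0.06 and 0.32 for numbers 1, 2 and 5, so the numbers do not show a pairing. Among all genes 253 were called lower with the block and 583 without it. The median log2 fold change of all genes moved by less than 0.1 between scalings. At these depths the 10 genes had at least 770 counts in every sample, so the spread between samples set the precision.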
